A study of Homo sapiens with 4 samples.

Results

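The 9 genes ESR1, PGR, FOXA1, GATA3, SPDEF, TFF1, ERBB2, ERBB3 and CLDN3, which mark luminal breast epithelium, were followed through a STARR-seq experiment. The cells were MDA-MB-231, an established breast cancer line of claudin-low, mesenchymal character known for lacking the estrogen receptor. A peak was assigned to one of these 9 genes when its summit lay inside the gene or within 10 kb of either end, with gene coordinates from RefSeq for GRCh38. By this rule 89 of 260678 peaks on chromosomes 1 to 22 and X belonged to the 9 genes, which are 9 of 19974 protein-coding genes. STARR-seq clones sheared genomic DNA into a reporter so that each fragment can enhance its own transcription, and the reporter RNA is then sequenced. The cloned DNA came from MDA-MB-231 itself, and cells were collected 8 h after they received the library.

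The 4 treatments were DMSO as the vehicle control, the CRY stabilizer SHP1705 at 10 µM, the proteasome inhibitor MG132 at 100 nM, and a combination of 10 µM SHP1705 with 100 nM MG132. Drug-containing medium was on the cells before the plasmids were. There was 1 library for each treatment, so no spread between replicates was measured, no p-value is given, and every difference compares single libraries. No library of the plasmid pool itself was analysed here. A peak therefore shows where fragments piled up in the RNA, without correction for how often that fragment was in the pool, and it does not show whether the gene beside it is expressed, so the luminal or mesenchymal identity of the cells was not checked against these genes.

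In the breast, ESR1 and PGR encode the estrogen and progesterone receptors, ligand-activated transcription factors of hormone-responsive luminal cells. FOXA1 is a pioneer factor that opens chromatin for the estrogen receptor, GATA3 is the zinc finger factor that maintains luminal identity, and SPDEF is an ETS factor of secretory epithelium. TFF1 encodes a secreted trefoil peptide and is a classical estrogen target. ERBB2 and ERBB3 are receptor tyrosine kinases that signal as a pair, and CLDN3 is a tight junction protein whose low level helps define claudin-low tumours. CRY proteins repress the circadian activators CLOCK and BMAL1 at E-box elements.

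The libraries held 27289266 (MG132) to 29717604 (DMSO) fragments, except SHP1705 with 118324303. The height of a peak is its pileup, the number of fragments over the summit, and is given here per 1000000 fragments of its library (fpm). The median peak was 8.04 fpm high in DMSO, 7.02 in the combination, 5.42 in MG132 and 0.786 in SHP1705, whose lowest peak had 28 fragments against 12 or 13 in the others. The SHP1705 list thus reached lower relative heights than the other lists. Peaks narrower than 346 bp (DMSO), 354 bp (MG132) or 355 bp (combination) could not be called, where the limit in SHP1705 was 299 bp. Intervals below are exact Poisson intervals (95%) and cover counting error only. Duplicate fragments were kept and are not independent molecules, so the intervals may be too narrow even for that error.

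Most of the 9 genes had a peak in every list, and none of the lists had a peak at all 9. DMSO had peaks at 8 of the 9 genes, all but GATA3, where 58.8% of all protein-coding genes had one. SHP1705 had peaks at 8, all but TFF1, against 88.4% of all genes, and MG132 at 8, all but FOXA1, against 71.3%. The combination had peaks at 7, all but FOXA1 and GATA3, against 64.0%. A peak in each of the 4 lists was found at 6 of the 9 genes (SPDEF, ESR1, CLDN3, PGR, ERBB3 and ERBB2), where 36.9% of all genes had this. With the summit required inside the gene itself, DMSO kept 6 genes (42.1% of all genes), the combination 7 (45.7%), MG132 8 (51.6%) and SHP1705 8 (75.9%).

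In number of peaks, SHP1705 led with 28, followed by the combination with 24, MG132 with 22 and DMSO with 15. With the 47822 peaks of lowest p in each list, by the peak caller, SHP1705 had 16, MG132 16, the combination 20 and DMSO 15. The order of the lists by number of peaks thus did not hold at equal list length. The 10 kb limit leaves some peaks close to it on either side. Just inside were an ERBB3 peak of SHP1705 (7.35 fpm at 9522 bp from the gene) and the combination peak of CLDN3 (9499 bp). Just outside were a FOXA1 peak of DMSO (4.91 fpm at 10020 bp), an ESR1 peak of the combination (17.6 fpm at 10891 bp, taller than any it had within the limit) and a TFF1 peak of SHP1705 (1.51 fpm at 11253 bp). Peaks inside the gene were 25 of 28 in SHP1705, 18 of 22 in MG132, 17 of 24 in the combination and 10 of 15 in DMSO. The same share over the peaks of all genes is not given, so these counts are not read as a trait of the 9 genes. Peaks were also counted per 100 kb of gene with its flanks. The median over the 9 genes was 4.95 in the combination (1.58 over all protein-coding genes) and 4.12 in MG132 (2.26). It was 4.01 in SHP1705 (4.70) and 2.60 in DMSO (1.15). With peaks and lengths pooled over the genes, the density was 2.74 in the combination (1.80) and 2.51 in MG132 (2.29). The pooled density was 3.19 in SHP1705 (4.17) and 1.71 in DMSO (1.49), so the contrasts in the combination, MG132 and DMSO were smaller than by the medians.

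**Figure D1:**
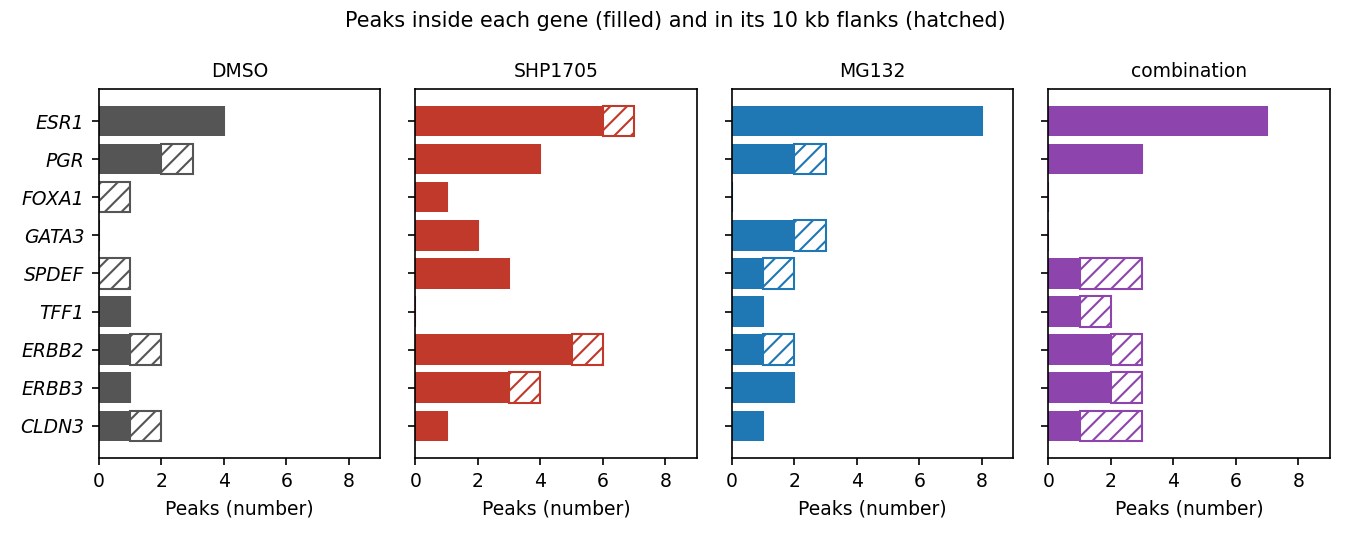
Number of peaks (horizontal axis) at each of the 9 genes in the 4 libraries, with filled bars for summits inside the gene and hatched bars for summits in the 10 kb flanks. ESR1 had the most peaks in each list, and SHP1705 had 3 flank peaks among its 28.

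ESR1 is the longest of the 9 genes, at chr6:151656672-152129619 on the plus strand (GRCh38), and held 26 of the 89 peaks. MG132 had 8 (1.62 per 100 kb), SHP1705 and the combination had 7 each (1.42), and DMSO had 4 (0.811). The tallest was 19.1 fpm in DMSO (interval 17.5 to 20.7), 15.4 in the combination (13.9 to 16.9), 9.05 in MG132 (7.96 to 10.3) and 2.99 in SHP1705 (2.69 to 3.32). Those 4 tallest peaks lay at 4 separate places, with DMSO at chr6:152017720-152018192, the combination at chr6:152074555-152075013, MG132 at chr6:151933805-151934291 and SHP1705 at chr6:152121760-152122688. The DMSO and SHP1705 values are therefore heights of different fragments. Of the 7 SHP1705 peaks at ESR1 the other 6 lay between 0.347 and 0.811 fpm. The 4 DMSO peaks lay between 6.83 and 19.1 fpm. Over all peaks the median was 0.786 fpm in SHP1705 and 8.04 in DMSO. In raw pileup the tallest SHP1705 peak of ESR1, with 354 fragments, lay within the DMSO range of 203 to 567.

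Only 1 of the 25 ESR1 regions held peaks of more than 1 list. It lay near the end of the gene, where SHP1705 reached 2.99 fpm and MG132 1.32 (0.924 to 1.83). The last 7933 bp of ESR1 are shared with SYNE1, a gene for a nuclear envelope spectrin that runs on the opposite strand, and the SHP1705 summit there was 500 bp from the 3′ end of SYNE1. The peak lists carry no strand, so the pileup cannot be given to ESR1 or SYNE1. None of the 6 ESR1 promoter windows of RefSeq (250 bases before to 50 after a start site) was overlapped by a peak. The closest summit to an ESR1 start site was 671 bp away, in MG132, at chr6:151691173-151691602 with 8.17 fpm.

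PGR, at chr11:101029624-101129813 on the minus strand, had a tallest SHP1705 peak 57.0-fold lower than its tallest DMSO peak, the largest such ratio among the 7 genes with a peak in both lists. Its tallest peak was 24.6 fpm in DMSO (22.8 to 26.4), 21.5 in the combination (19.8 to 23.3), 7.84 in MG132 (6.83 to 8.97) and 0.431 in SHP1705 (0.321 to 0.567). The 4 SHP1705 peaks had 41 to 51 fragments, while the DMSO summit at chr11:101026637-101027125, in the flank 2743 bp beyond the 3′ end, had 730 fragments. Inside PGR the tallest DMSO peak had 100 fragments, or 3.37 fpm, so the 57.0-fold ratio rests on the flank peak. The tallest combination peak lay inside the gene at chr11:101044254-101044699, with 609 fragments. No 2 lists shared any of the 13 PGR peaks, each of which formed a region of its own. An MG132 peak with 7.62 fpm was centred 694 bp upstream of the gene, within the antisense gene PGR-AS1.

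**Figure D2:**
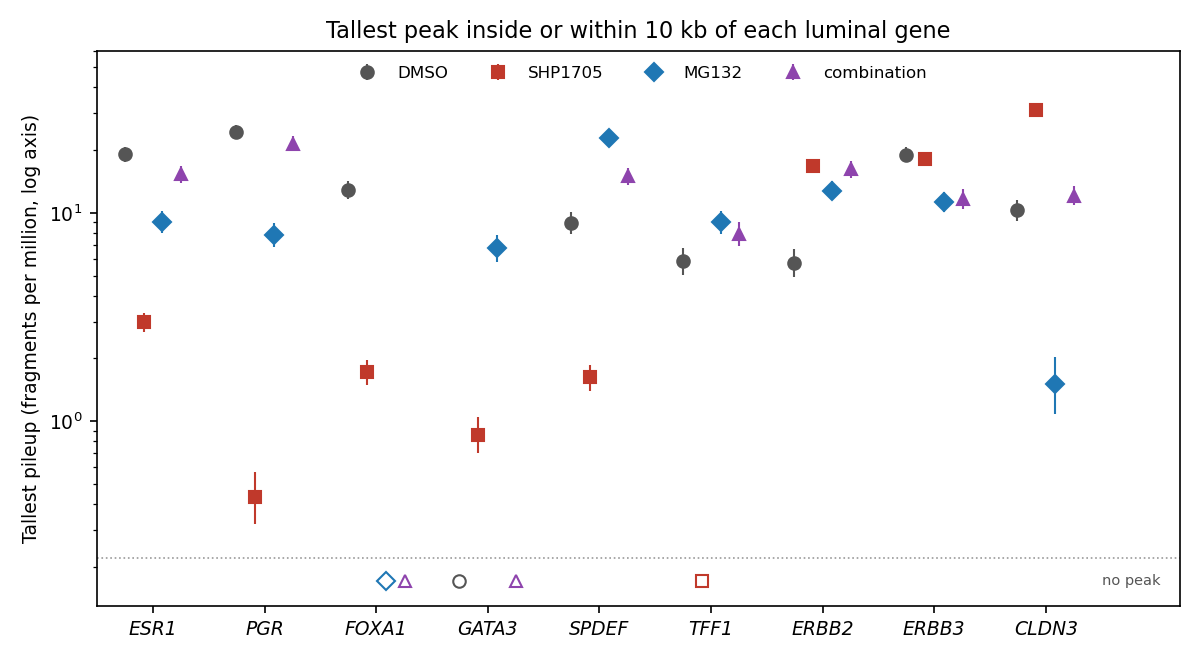
Height of the tallest peak inside or within 10 kb of each gene, in fpm on a log axis, with filled symbols for the 4 libraries and bars for exact Poisson 95% intervals. Open symbols below the dotted line mark lists with no peak, and SHP1705 lies below the other lists at ESR1, PGR and SPDEF but above them at CLDN3.

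The transcription factor genes FOXA1 and GATA3 had few peaks. FOXA1, at chr14:37589552-37595249 on the minus strand, had 1 in SHP1705 and 1 in DMSO. The SHP1705 peak was the widest of the 89, covering 2471 bp of the gene (chr14:37590041-37592511) with a height of 1.72 fpm (1.49 to 1.97) and a summit 782 bp from the 3′ end. The DMSO peak was 427 bp wide and 12.9 fpm high (11.6 to 14.2), and lay 8744 bp upstream of FOXA1 inside TTC6. FOXA1 itself thus held a peak in SHP1705 only, and MG132 and the combination had none within 10 kb.

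GATA3, at chr10:8045333-8075198 on the plus strand, had 2 peaks in SHP1705 and 3 in MG132, and none in DMSO or the combination. In SHP1705 the taller, at chr10:8045727-8046137, reached 0.862 fpm (0.703 to 1.05) at 599 bp from the first start site. In MG132 the tallest lay in the downstream flank with 6.78 fpm (5.84 to 7.83), and those inside the gene reached 3.77 and 4.95. At an internal start site of GATA3 a SHP1705 peak (chr10:8049431-8049795, 0.330 fpm) and an MG132 peak (chr10:8049775-8050130, 3.77 fpm) overlapped by 21 bp. Because that overlap falls inside a promoter window, its sequence is shown, from RefSeq for GRCh38.p14, chr10:8049604-8049903, plus strand, with the bases under both peaks in capitals.

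GATA3 internal promoter window: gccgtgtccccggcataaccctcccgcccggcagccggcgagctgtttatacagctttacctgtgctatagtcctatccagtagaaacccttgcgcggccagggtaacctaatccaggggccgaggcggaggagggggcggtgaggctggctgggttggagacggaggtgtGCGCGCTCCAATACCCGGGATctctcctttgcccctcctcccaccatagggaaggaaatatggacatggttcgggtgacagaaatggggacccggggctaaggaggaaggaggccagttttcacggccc

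SHP1705 covered 192 bases of this window and MG132 covered 129. The 2 summits were 340 bp apart, so the peaks met only at their edges.

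SPDEF, at chr6:34537802-34556329 on the minus strand, had its tallest peak in MG132, at 22.9 fpm (21.1 to 24.7), inside the gene at chr6:34551439-34551916. That height exceeded the tallest peak of 98.0% of all genes with an MG132 peak. The tallest was 15.0 fpm in the combination (13.6 to 16.5), just upstream of the gene, 8.98 in DMSO (7.94 to 10.1), in the downstream flank inside PACSIN1, and 1.62 in SHP1705 (1.40 to 1.87). The SHP1705 peak had its summit 479 bp from the 3′ end of SPDEF. Upstream of the SPDEF start the combination peak (chr6:34556591-34557040) and an MG132 peak with 3.66 fpm (2.98 to 4.46) overlapped by 212 bp, and DMSO and SHP1705 had none there. Inside SPDEF, SHP1705 and the combination had peaks with the same start and the same end, chr6:34540734-34541179, at 1.24 (1.05 to 1.46) and 1.55 (1.13 to 2.08) fpm. The summits of these peaks were 297 bp apart.

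TFF1, at chr21:42362282-42366535, was the gene with no SHP1705 peak. Its tallest peak was 9.01 fpm in MG132 (7.92 to 10.2), 7.94 in the combination (6.94 to 9.05) and 5.86 in DMSO (5.02 to 6.79). The MG132 peak, chr21:42363932-42364915, lay inside the gene and was 984 bp wide. A combination peak of 499 bp, with 1.16 fpm (0.802 to 1.64), ended at the same base. The noncoding gene LOC105372815 overlaps 2831 bp of TFF1, and the summit of each of the 4 peaks at TFF1 also lay within it.

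The receptor tyrosine kinase genes had their tallest SHP1705 peaks at the end of the gene. ERBB2 is at chr17:39688094-39728658 on the plus strand, and SHP1705 had 6 peaks there, the combination 3, and DMSO and MG132 had 2 each. The tallest, chr17:39727303-39728582, was 1280 bp wide and 16.7 fpm high (16.0 to 17.5), with its summit 371 bp from the 3′ end. DMSO had a peak of 31 fragments in the same region, at 1.04 fpm (0.709 to 1.48), so SHP1705 was 16.0-fold higher there in fpm, or 50.9-fold when each list is divided by its median pileup in the regions found in all 4 lists. Where both lists had a peak, SHP1705 was at least 2-fold higher in 24.6% of 8597 regions and at least 2-fold lower in 69.9%. The region touches MIEN1, a gene on the opposite strand whose 3′ end overlaps that of ERBB2 by 149 bp. A further SHP1705 peak with 10.3 fpm lay inside MIEN1.

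MG132 and the combination had their own tallest ERBB2 peaks a little further inside the gene and overlapping by 290 bp, at 12.8 fpm (11.5 to 14.2) and 16.2 (14.8 to 17.8). Their summits were 565 bp apart. DMSO and SHP1705 had no peak at that place. The tallest DMSO peak of ERBB2 lay in the flank at 5.75 fpm (4.92 to 6.68).

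ERBB3, at chr12:56080108-56103505, had its tallest SHP1705 peak at chr12:56101634-56103475, 1842 bp wide and 18.1 fpm high (17.4 to 18.9), with the summit 579 bp from the higher-numbered end of the gene. In DMSO the tallest was 19.0 (17.5 to 20.6), in the combination 11.6 (10.4 to 12.97) and in MG132 11.3 (10.1 to 12.7). The 3 lists other than SHP1705 had no peak over the end of the gene. In the flank, SHP1705 had 7.35 fpm near the 3′ end of PA2G4, which encodes a proliferation-associated protein. MG132 and the combination shared a peak inside ERBB3 with identical start and end, chr12:56088467-56088936, at 3.37 (2.72 to 4.13) and 11.6 fpm, so the combination was 3.46-fold higher. In 15.3% of the 9333 regions with peaks in both of these lists, the combination was at least 2-fold higher.

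CLDN3 held the tallest of the 89 peaks and the only region of the 9 genes found in all 4 lists. That call was lost when the lists were brought to equal length and when peaks had to overlap by 50% of both, which left 0 such regions. The gene is short and intronless, at chr7:73768997-73770270 on the minus strand. SHP1705 had 3673 fragments over the summit, or 31.0 fpm (30.0 to 32.1), in a peak of 1177 bp at chr7:73769076-73770252. MG132 had 41 fragments (1.502 fpm, 1.08 to 2.04), DMSO 37 (1.25, 0.877 to 1.72) and the combination 30 (1.06, 0.714 to 1.51). Those 3 intervals overlap, and SHP1705 was 24.9-fold above DMSO in fpm, or 79.2-fold on the scale of the regions in all 4 lists. The SHP1705, DMSO and MG132 peaks were 1177, 1010 and 1051 bp wide, lay wholly within the 1274 bp of the gene, and their upper ends were at most 22 bp apart. The combination peak was 361 bp wide and lay inside the other 3.

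The excess of SHP1705 at CLDN3 ran opposite to most shared regions. In the 4584 regions with a peak in all 4 lists, the median SHP1705 height was 0.153 times the DMSO height, and medians for MG132 and the combination were 1.06 and 0.928 times. A region in all 4 lists was found within 10 kb of 8.82% of all protein-coding genes. At CLDN3 the DMSO list also had a flank peak of 10.3 fpm and the combination one of 12.1, at other places, and these were the tallest CLDN3 peaks of their lists. The start of the gene lay at the edge of the shared region, and the promoter window at chr7:73770221-73770520 (GRCh38.p14, RefSeq, minus strand) is shown with the bases under the SHP1705, MG132 and DMSO peaks in capitals.

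CLDN3 promoter window: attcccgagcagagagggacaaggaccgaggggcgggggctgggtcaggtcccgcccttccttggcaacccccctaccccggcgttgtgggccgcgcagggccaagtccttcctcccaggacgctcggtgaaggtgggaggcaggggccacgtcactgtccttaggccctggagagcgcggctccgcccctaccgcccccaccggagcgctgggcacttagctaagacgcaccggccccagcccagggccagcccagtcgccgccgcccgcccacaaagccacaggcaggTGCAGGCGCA

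SHP1705 covered 32 bases at the gene side of this window, MG132 covered 22 and DMSO covered 10. All of the bases covered in the 3 lists lie after the start site, so the sequence upstream of CLDN3 carried no peak in this window.

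**Figure D3:**
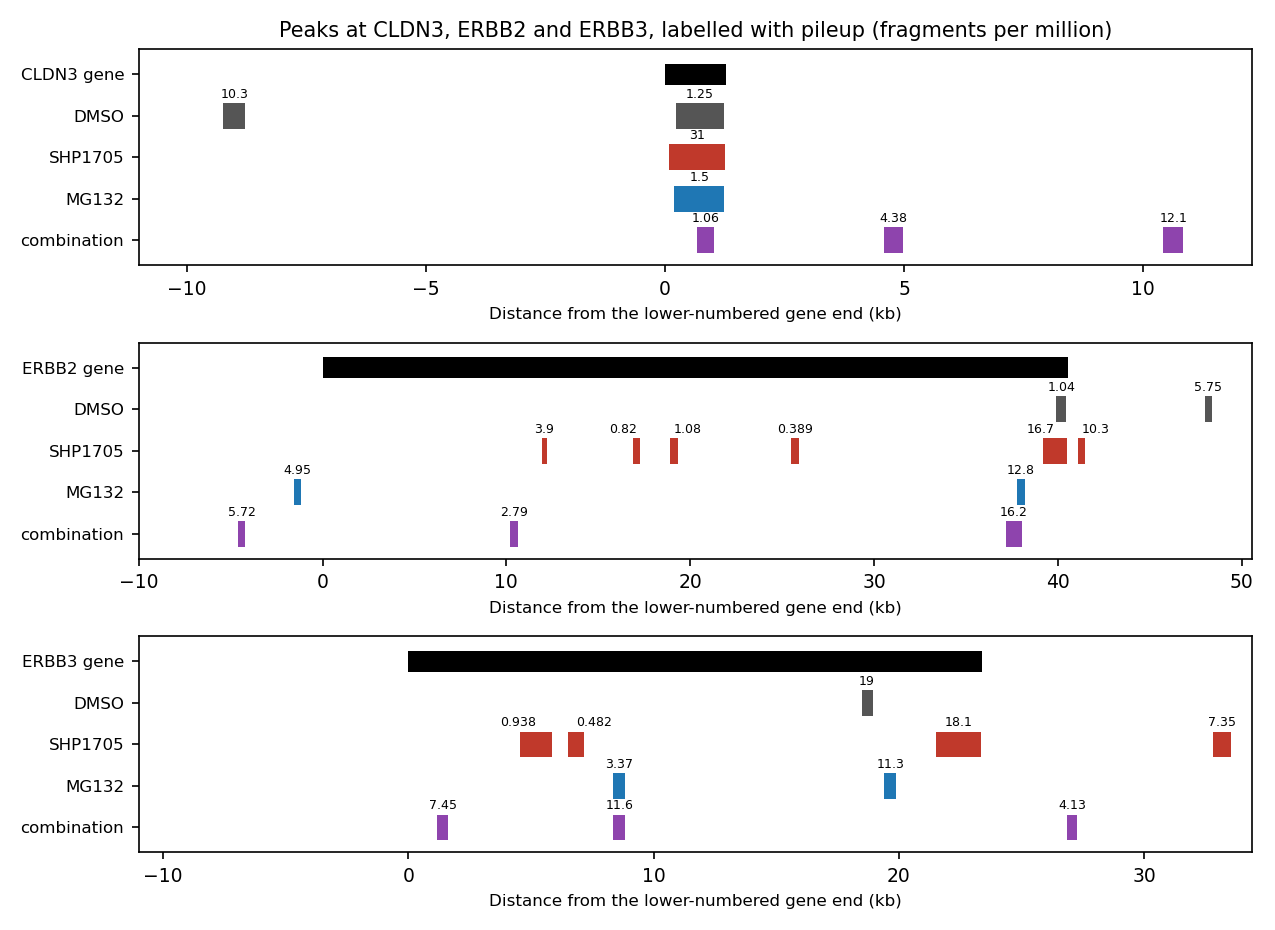
Peaks of the 4 libraries at CLDN3, ERBB2 and ERBB3 drawn to scale against distance from the lower-numbered gene end in kb, with each peak's pileup in fpm above it and the gene as a black bar. At CLDN3 all 4 libraries have a peak over the gene (31.0 fpm in SHP1705 and 1.06 to 1.502 in the others), and the tall SHP1705 peaks of ERBB2 and ERBB3 lie at the upper end of each gene.

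The place of the tallest peak was read for each gene with a peak in the list. It lay inside the gene at 8 of 8 genes in SHP1705 (65.6% of all genes with a peak), 7 of 8 in MG132 (60.7%), 4 of 7 in the combination (61.5%) and 3 of 8 in DMSO (62.9%). It lay inside the gene and within 1 kb of an end at 6 of 8 genes in SHP1705, where 25.5% of all genes with a peak had this. That count was 1 in DMSO (TFF1; 6.93%), 1 in MG132 (CLDN3; 6.15%) and 0 in the combination (5.86%). CLDN3 is 1274 bp long, so each place inside it is within 1 kb of an end. Among the 7 genes whose strand is in the promoter table, SHP1705 had a summit inside the gene within 2 kb of the 3′ end at 5 (SPDEF, CLDN3, PGR, FOXA1 and ERBB2), against 48.0% of all genes. The count was 2 in DMSO (CLDN3 and ERBB2), against 7.94%, 1 in MG132, against 10.2%, and 1 in the combination, against 8.07%. The calls in MG132 and the combination were both CLDN3. Any summit inside CLDN3 counts here, since the gene is shorter than 2 kb. Its SHP1705 summit was 957 bp from the 3′ end and 316 bp from the start. Peaks overlapped a promoter window at CLDN3 and GATA3 in SHP1705 (22.5% of all genes) and in MG132 (2.33%), at CLDN3 in DMSO (1.77%), and at none of the 7 in the combination (1.87%).

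Peak shape was judged by the position of the summit. The peak caller sets the summit at the middle of the highest stretch, so a pile of fragments with the same ends has its summit at the centre of the peak. Summits lay within 10% of the peak width of the centre in 9 of 15 peaks in DMSO (60%, exact binomial interval 32.3 to 83.7), 17 of 24 in the combination (70.8%, 48.9 to 87.4), 11 of 22 in MG132 (50%, 28.2 to 71.8) and 13 of 28 in SHP1705 (46.4%, 27.5 to 66.1). For all peaks the shares were 63.8% in DMSO, 65.2% in the combination, 68.0% in MG132 and 48.5% in SHP1705. Each share lay inside the interval for the 9 genes. The binomial intervals treat peaks as independent, although several lie at the same gene, so they do not test a difference. Summits within 1 bp of the exact middle made up 60% of these peaks in DMSO (49.1% of all peaks), 54.2% in the combination (50.7%), 31.8% in MG132 (54.4%) and 21.4% in SHP1705 (26.6%).

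Median widths of centred and off-centre peaks were 402 and 419.5 bp in DMSO and 410 and 482 bp in MG132. They were 409 and 477 bp in the combination and 403 and 477 bp in SHP1705. Median heights of centred and off-centre peaks were 10.3 and 4.61 fpm in DMSO, 6.05 and 5.17 in MG132, 7.31 and 7.94 in the combination, and 0.549 and 1.08 in SHP1705. The widest SHP1705 peaks (FOXA1, ERBB3, ERBB2 and CLDN3) were off centre. By gene, 20 of the 26 peaks at ESR1 and 9 of the 13 at PGR were centred, but 0 of the 4 at TFF1 and 3 of the 10 at ERBB3.

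**Figure D4:**
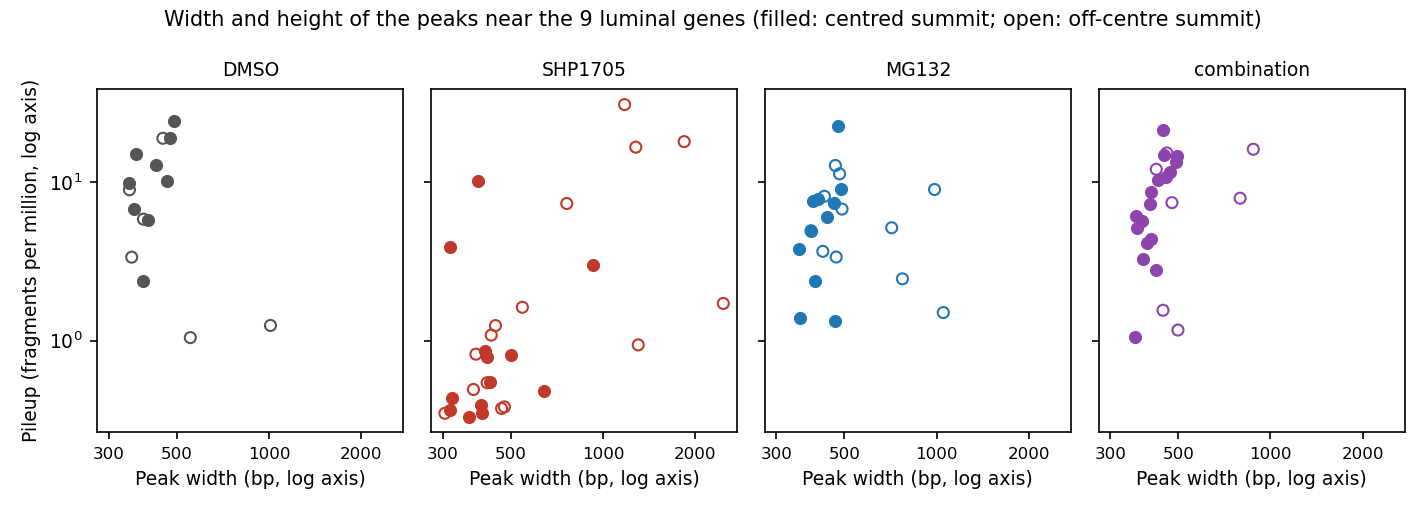
Width in bp against pileup in fpm, both on log axes, for the peaks near the 9 genes in each library, with filled points for summits within 10% of the width of the peak's middle and open points for the rest. In SHP1705, 21 of 28 peaks lie under 2 fpm and the 5 widest, up to 2471 bp, all have open points, while in DMSO only 2 of 15 peaks lie under 2 fpm.

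Few regions of the 9 genes were shared between treatments. The 89 peaks formed 78 regions when peaks with at least 1 bp in common were merged, and 69 of these (88.5%) held a peak in 1 list, 8 (10.3%) in 2 lists, 0 in 3 and 1 in all 4. Of all 223513 regions, 89.5% held a peak in 1 list, 6.76% in 2, 1.66% in 3 and 2.05% in all 4. Of the 8 regions in 2 lists, 4 joined MG132 with the combination (at ERBB2, ERBB3, SPDEF and TFF1), 2 joined SHP1705 with MG132 (ESR1 and GATA3), 1 joined SHP1705 with the combination (SPDEF) and 1 joined DMSO with SHP1705 (ERBB2). No region of the 9 genes joined DMSO with MG132 alone or with the combination alone. Of all 15111 regions in 2 lists, 22.9% joined SHP1705 with MG132, 17.6% MG132 with the combination, 17.2% SHP1705 with the combination, 15.7% DMSO with SHP1705, 14.7% DMSO with MG132 and 11.8% DMSO with the combination.

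Heights at the regions joining MG132 with the combination were compared at the summit of each list. From MG132 to the combination, the region at ERBB2 was 1.27-fold higher, ERBB3 3.46-fold and SPDEF 4.08-fold higher, while TFF1 was 7.74-fold lower. The summits of these pairs were 565 bp (ERBB2), 70 bp (ERBB3), 57 bp (SPDEF) and 518 bp (TFF1) apart. At ERBB2 and TFF1 the highest points are thus different places in the region, and their ratios do not compare 1 place. Where the summits were close, at ERBB3 and SPDEF, the combination was higher. At SPDEF, the combination and SHP1705 peaks with the same ends had overlapping intervals in fpm, with a ratio of 1.25 (0.872 to 1.76). Their summits were 297 bp apart, so this ratio does not compare 1 place either. In all 8833 regions with peaks in these lists, the combination was at least 2-fold higher in 72.2%. That ratio has no settled direction, since dividing by the median pileup of the regions in all 4 lists, in place of the fragment total, puts the combination 2.61-fold below SHP1705. At the GATA3 and ESR1 regions the SHP1705 and MG132 summits were 340 and 414 bp apart, so no ratio is given for them. For the 9978 regions with peaks in both of these lists, MG132 was at least 2-fold higher in 70.3% and lower in 23.1%. Identical start and end in 2 lists occurred at SPDEF and ERBB3, for 4 of the 89 peaks (4.49%, interval 1.24 to 11.1), beside 2.64% of all peaks.

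The tallest peak of each gene was then set beside that of DMSO, where both lists had one, with 2-fold as the limit. SHP1705 was at least 2-fold higher at 2 of 7 genes (CLDN3 3.02-fold, ERBB2 2.90-fold), beside 27.1% of all genes, and at least 2-fold lower at 4 (PGR 57.0-fold, FOXA1 7.51-fold, ESR1 6.38-fold, SPDEF 5.54-fold), beside 45.9%. ERBB3 was nearly equal in fpm, at 0.953 times DMSO. These counts depend on the scale and on the flanks. Dividing by the median pileup of the regions in all 4 lists raises each SHP1705 ratio by 1.67 on the log2 scale. That gives 3 genes higher, with ERBB3 now among them, and 3 lower. Each of the other 6 genes named here stays on its side of DMSO. With raw pileups, 3 genes were higher and 1 lower. With peaks inside the gene only, 2 were higher and 2 lower. FOXA1 and SPDEF drop out of that count, since their DMSO peaks lie in the flanks, inside TTC6 and PACSIN1. PGR stays lower, but its tallest DMSO peak inside the gene had 3.37 fpm, against 24.6 in the flank. The shares of all genes given above belong to the fpm scale with 10 kb flanks only.

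MG132 was at least 2-fold above DMSO at 2 of 7 genes (SPDEF 2.55-fold, ERBB2 2.22-fold; 14.2% of all genes) and at least 2-fold below at 3 (CLDN3 6.83-fold, PGR 3.13-fold, ESR1 2.11-fold; 28.8%). The combination was at least 2-fold above DMSO at 1 (ERBB2 2.82-fold; 18.2%) and below at 0 (21.5%), and at least 2-fold above MG132 at 2 (CLDN3 8.06-fold, PGR 2.74-fold; 25.2%) and below at 0 (14.1%). The tallest peaks of 2 lists rarely lay at the same place, and these ratios do not follow one fragment across treatments. The comparisons with DMSO share its library. When only peaks inside the gene were used, the combination was at least 2-fold above DMSO at 2 genes and below at 1. Against MG132 the combination was then above at 1 and below at 2, and MG132 was above DMSO at 2 and below at 1. The tallest DMSO peaks of PGR and CLDN3, and the tallest combination peak of CLDN3, lie in the flanks. Inside PGR the tallest DMSO peak had 3.37 fpm, below the 7.84 of MG132. At the shared CLDN3 region MG132 was 1.21 times DMSO, and the combination was 0.705 times MG132.

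**Figure D5:**
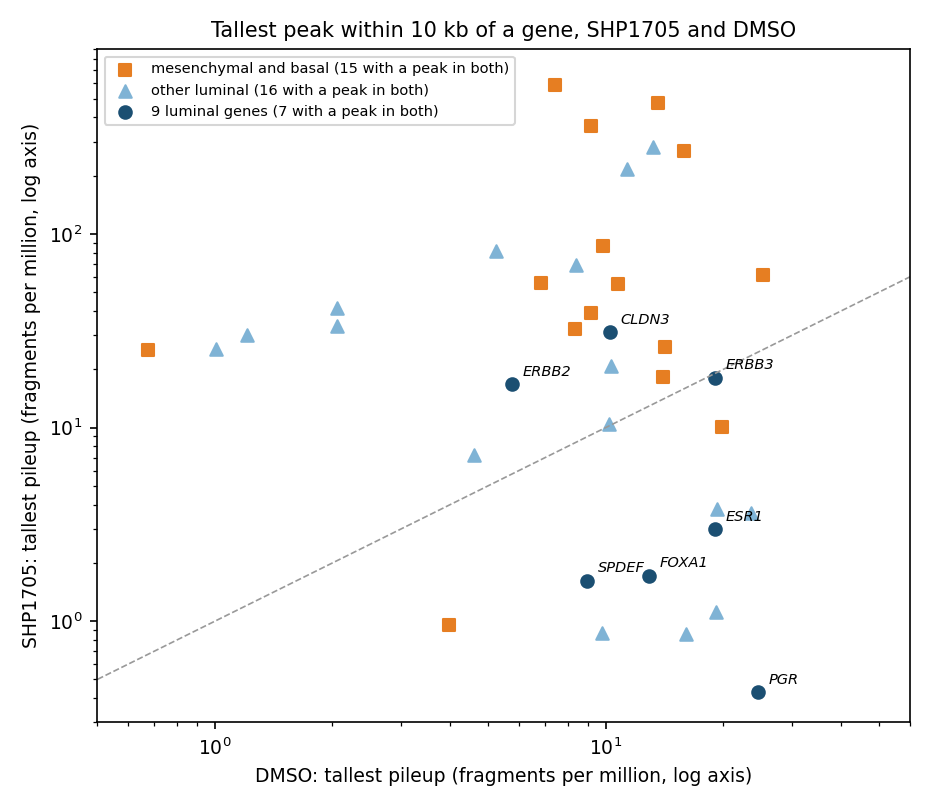
Tallest pileup in fpm within 10 kb of a gene in SHP1705 (vertical) against DMSO (horizontal), on log axes with the line of equality dashed, for the 7 luminal genes with a peak in both lists, 16 other luminal genes and 15 mesenchymal and basal genes. ESR1, PGR, FOXA1 and SPDEF lie below the line, whereas CLDN3 and ERBB2 lie above it.

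The 9 genes were set beside 3 other gene lists. The median tallest SHP1705 peak was 2.35 fpm at the 9 genes, 23.1 at the 16 other luminal genes, led by the keratin KRT8 with 281, 4.18 at 9 family relatives of the 9 genes, 47.4 at the 16 mesenchymal and basal genes, led by the intermediate filament VIM with 589, and 5.10 over all genes with a peak. In DMSO the medians were 11.6 for the 9 genes, 17.3 for the family relatives, 9.99 for the other luminal genes, 9.86 for the mesenchymal and basal genes and 9.89 for all genes. A region in all 4 lists was found at 1 of the 9 genes, 1 of the 9 relatives, 7 of the other luminal genes and 9 of the mesenchymal and basal genes. No test was made of these differences, since there was 1 library per treatment.

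Of the relatives, 4 (ERBB4, CLDN4, TFF3 and EGFR) stand in the other lists as well. The epidermal growth factor receptor gene EGFR had its tallest peak at 19.8 fpm in DMSO, followed by 12.8 in the combination, 10.1 in SHP1705 and 3.55 in MG132. ERBB4, the longest of these relatives, had 10 SHP1705 peaks, none above 1.12 fpm, but reached 25.0 in the combination, 20.04 in MG132 and 19.1 in DMSO. CLDN4, a neighbouring claudin gene on chromosome 7, had a region in all 4 lists like CLDN3 and reached 69.5 fpm in SHP1705, where it was 9.92 in the combination, 8.38 in DMSO and 3.005 in MG132. The other relatives were ESR2, GATA2, FOXA2, TFF2, TFF3 and CLDN1. All 9 relatives had a peak in SHP1705. DMSO, MG132 and the combination had peaks at 6 relatives each, but not at the same 6. Only EGFR, ERBB4 and CLDN4 had a peak in every list.

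For each of the 6 genes with a peak in every list, the closest gene in tallest height over the 4 libraries was found among 7362 such genes, by distance on the log2 scale. It was C2CD3 for ESR1 (distance 0.215), NRG2 for PGR (0.362), CRACDL for SPDEF (0.259), R3HCC1L for ERBB3 (0.240) and LTBP4 for CLDN3 (0.487). For ERBB2 it was the neighbour MIEN1 at distance 0, because both genes are within 10 kb of the same peaks. With 4 points per gene this is a description of like heights.

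The promoter table held 19 windows for 7 of the 9 genes, and ERBB3 and TFF1 had none. The E-box CACGTG, searched on both strands, was found in 3 of the 19 windows (an internal GATA3 window and 2 overlapping PGR windows), beside 7.26% of all 35116 windows. The AP-1 element TGANTCA was in 2 (GATA3 and ERBB2, 7.71% of all). The sequence TATAAA was in 1 (11.5% of all), the GATA3 window shown above. There it lies on the opposite strand only, so it reads TTTATA in the bases shown and is not called a TATA box of that start site. The elements AGATAA (10.3%), TGTTTAC (3.42%) and AGGTCA (13.8%) were in 0. Neither the CACGTG nor the TGANTCA windows were overlapped by a peak in any list.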

How the data were processed

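The deposited peak lists come from MACS 2.2.6, run separately on each library (paired-end mode, q limit 0.01, duplicates kept, no control, background over 10000 bp), per the file headers. Trimmomatic, FastQC, Bowtie2 and MACS2 with hg38 were used, per the submitters' processing notes. Bowtie2 settings were not stated there. The pileup signal deposited by the authors is unscaled, and was divided here by the fragment total of the header and multiplied by 1000000. The deposited −log10 p and −log10 q served to rank or filter peaks within a list, and the deposited fold (ratio to background) was not compared between lists.

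Peaks on chromosomes 1 to 22 and X were assigned to genes by summit, with coordinates from RefSeq GRCh38.p14, and merged across lists at 1 bp of overlap (Python 3.11.15, pandas 2.3.3). Counting was checked on simulated peaks. The 9 genes were all named, and other genes were named as list members, neighbours or closest in height. The genes and lists were chosen with earlier results of these data known. The closing section gives the alternatives tried. No genome sequence or exons were used.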

Additional observations from a re-analysis of the deposited data

How the results depend on the processing

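Of 137 values recomputed under alternatives, 105 stayed within 1.5 times the count given above, or within its interval for shares and ratios, and 32 did not. Numbers of the 9 genes with a peak stayed within that limit under each alternative. With 50 kb in place of 10 kb, the SHP1705 list held 74 peaks of these genes, MG132 held 43, the combination held 42 and DMSO held 25, and at equal list length SHP1705 had 16. The CLDN3 region in all 4 lists was lost (0 regions) at equal list length and when peaks had to overlap by 50% of both. With summits within 1 bp of the middle, an alternative chosen after seeing the data, 21.4% of SHP1705 peaks were centred. Leaving out flank peaks inside another gene and rescaling heights of single regions were also chosen after seeing the data. The rescaling moved the 7 ratios that involve SHP1705 and not the 7 others.

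For tallest heights, a 3-fold limit left SHP1705 higher than DMSO at 1 gene, MG132 higher at 0, the combination higher than DMSO at 0 and higher than MG132 at 1. A 1.5-fold limit put the combination above DMSO at 2 genes and below at 1, and below MG132 at 1. With peaks inside the gene only, SHP1705 was lower than DMSO at 2 genes, MG132 lower at 1, the combination higher at 2 and lower at 1, and against MG132 higher at 1 and lower at 2. Within 50 kb, SHP1705 was higher than DMSO at 4 genes, and the combination was lower than DMSO at 1 and lower than MG132 at 1. By raw pileup SHP1705 was lower than DMSO at 1 gene. Scaling by shared regions kept all 8 counts of higher or lower genes within 1.5 times. Apart from the limits themselves, the cause was not tested. No paired analysis was possible because each treatment had 1 library. Depth limits the lists unequally, with SHP1705 holding 118324303 fragments and the others at most 29717604.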
